A study of Mus musculus with 6 samples.

Results

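Chromatin accessibility was examined at 9 genes that hypoxia switches on outside glycolysis: Vegfa, Adm, Bnip3, Bnip3l, Ddit4, Mxi1, P4ha1, Kdm3a and Ankrd37. The genes were chosen by name, and a peak was counted at a gene when its summit lay in the gene body or within 3 kb of one of its annotated starts. By this rule 21 of 62876 regions belonged to the 9 genes, out of 78252 annotated genes, and 12 of the 21 were among the 23970 regions with a peak in every library. The assay was ATAC-seq, in which the Tn5 transposase places sequencing adapters in open DNA, on unsorted white cells of mouse peripheral blood after red cell lysis, as the labels and the study's methods give it; its results text names mononuclear cells, a preparation that holds few neutrophils. The labels gave 3 control libraries and 3 libraries of high-altitude de-acclimatization (HADA). Per the study's methods the animals were young adult male C57BL/6j mice. Control mice stayed in normal oxygen, and HADA mice spent weeks in a hypobaric hypoxia chamber and were then returned to normal oxygen. The day of normal oxygen on which this blood was taken is not given in the sources used here. The comparison asked whether hypoxia targets differ in openness between mice that had been returned to normal oxygen and mice that had never left it.

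In low oxygen the alpha subunits of the hypoxia-inducible factor (HIF) escape hydroxylation and destruction, pair with HIF-1 beta (Arnt) and bind the hypoxia response element, whose core reads ACGTG or GCGTG. HIF raises glycolysis genes and a second group that serves vessel growth, removal of mitochondria, brakes on growth, collagen folding and histone demethylation. The 9 genes stand for that second group. In white blood cells HIF is also active in activated myeloid cells at normal oxygen.

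The height of a peak was its summit pileup, the whole number of fragments stacked at the summit. Library depth was read as the pileup of the genome-wide background, between 1.69 and 2.05 for control and between 1.99 and 2.34 for HADA. Control lists held 34045 to 41475 peaks, HADA lists 44044 to 45799. A level below is a summit pileup divided by that background. The library medians of the shared regions averaged 0.38 higher in HADA on the log2 scale of levels, and the limma test was run on log2 pileups centred on the median shared region, so that its differences are relative to this shift. White cell markers appeared in the lists: at least 1 library had a start peak at each of the 7 B cell, 8 neutrophil, 6 monocyte and 5 NK cell markers. The same held for the 9 T cell markers except Cd8a. Single libraries held fewer: 1 to 3 of the 5 NK cell markers in control and 3 to 4 in HADA, and 4 of the 7 B cell markers in control 3.

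The windows that carry the results are printed first, on the strand of the gene, in GRCm39. Capitals mark each hypoxia response element core, read on either strand, so that CACGT and CACGC are cores of the opposite strand. The Bnip3 and Ankrd37 summits hold a core on both strands, P4ha1 and Adm are shown upstream of the start because the groups did not overlap in level or presence there, and the last windows surround the summits of the regions that passed the test, in Adm and Mxi1.
Bnip3 start, 100 bases on each side of the summit, chr7:138511297-138511497, minus strand: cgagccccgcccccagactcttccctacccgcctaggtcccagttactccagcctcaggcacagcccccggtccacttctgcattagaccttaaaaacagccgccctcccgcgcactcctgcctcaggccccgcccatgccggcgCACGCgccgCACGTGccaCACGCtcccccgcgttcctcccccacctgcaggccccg
Ankrd37 start, 100 bases on each side of the summit, chr8:46452996-46453196, minus strand: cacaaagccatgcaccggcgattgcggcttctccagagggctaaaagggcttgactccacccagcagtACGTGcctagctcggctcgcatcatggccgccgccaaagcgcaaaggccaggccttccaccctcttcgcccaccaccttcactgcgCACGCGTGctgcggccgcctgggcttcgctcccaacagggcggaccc
P4ha1, 250 bases upstream of the start, chr10:59158842-59159091, plus strand: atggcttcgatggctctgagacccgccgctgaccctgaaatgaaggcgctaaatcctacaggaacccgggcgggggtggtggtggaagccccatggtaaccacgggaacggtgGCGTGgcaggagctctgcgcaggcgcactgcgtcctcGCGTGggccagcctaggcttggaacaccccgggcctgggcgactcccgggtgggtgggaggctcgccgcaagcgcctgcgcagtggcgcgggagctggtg
Adm, 250 bases upstream of the start, chr7:110226608-110226857, plus strand: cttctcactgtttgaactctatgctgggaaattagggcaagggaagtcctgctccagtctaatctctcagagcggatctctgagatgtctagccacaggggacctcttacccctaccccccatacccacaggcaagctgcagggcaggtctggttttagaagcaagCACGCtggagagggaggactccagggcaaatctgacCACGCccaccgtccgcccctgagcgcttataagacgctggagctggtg
Adm downstream region, 60 bases on each side of the summit, chr7:110229397-110229517, plus strand: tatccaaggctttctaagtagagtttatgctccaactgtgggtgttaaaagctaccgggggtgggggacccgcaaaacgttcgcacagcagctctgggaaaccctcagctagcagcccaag
Mxi1 intron region, 60 bases on each side of the summit, chr19:53307315-53307435, plus strand: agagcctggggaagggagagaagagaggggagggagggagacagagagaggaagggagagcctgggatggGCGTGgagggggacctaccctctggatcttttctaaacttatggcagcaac
A core was found in the 250 bases upstream of the canonical start in 7 of the 9 genes (77.8%), against 41.4% of 21738 protein-coding starts. Vegfa and Kdm3a held neither core in that window. ACGTG, with or without GCGTG, was found at 5 of the 9 genes and at 17.0% of all starts. The matches include the palindromes CACGTG of Bnip3, counted once on each strand at 89 and 90 bases upstream, and CACGCGTG of Ankrd37 at 134 and 137 bases upstream. Within 100 bp of the summit a core was present in 8 of the 12 member regions shared by all libraries and in 35.4% of all shared regions. Start regions made up 8 of these 12, whereas the shared regions were taken wherever they lay. The sets were not matched for position or GC content, so the shares are not a test of enrichment. Over all 21 member regions, 9 of them not shared by all libraries, a core was present in 12. Among these, the 50 bases around the summit occur at 4 places in the genome for the region 19.8 kb into Mxi1. For the region 19.3 kb into Bnip3, which is shared by all libraries, they occur at 3 places. Within 50 bp these shares were 38.1% of the 21 and 20.2% of the shared regions. These are letter matches, and no binding was measured.

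The canonical starts of 8 of the 9 genes were open in every library of both groups, and none of these 8 start regions passed the limma test between groups, which 17.9% of all shared regions passed as higher and 24.1% as lower in HADA. Adm was the exception: its start had a peak in all 3 HADA libraries and in no control library. The 2 regions that passed lay away from a canonical start. Relative to the median shared region, a region 2.6 kb downstream of the Adm start was 1.86 times higher in HADA, and a region 10.5 kb upstream of the canonical Mxi1 start, in an intron of longer Mxi1 transcripts, fell to 0.311 times its control value. Among the 8 starts open in every library, Kdm3a and Bnip3l were the most open and Mxi1 the least open in both groups.

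**Figure D1:**
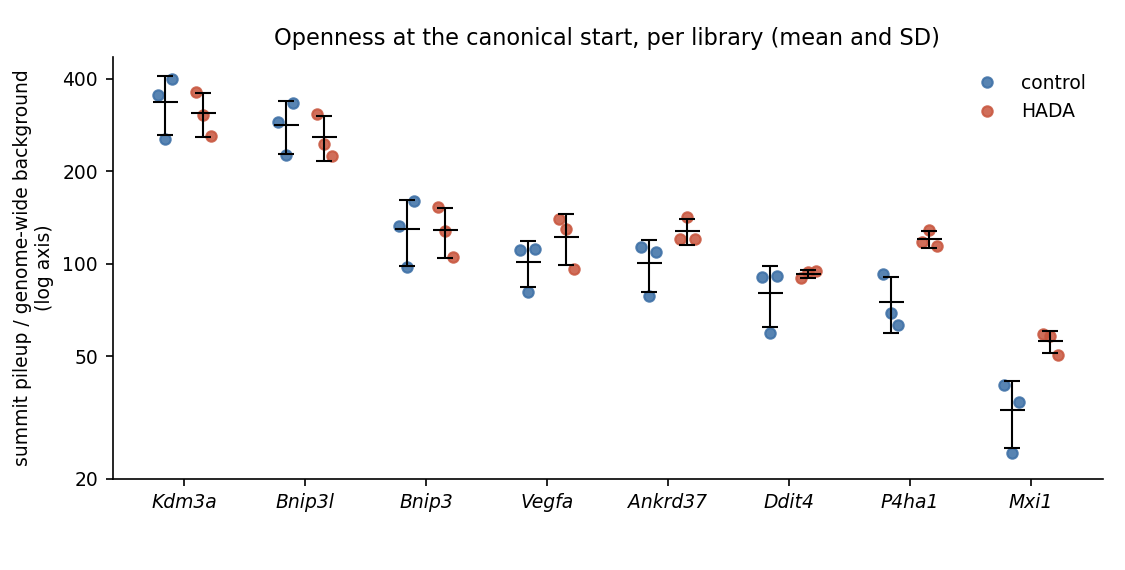
Summit pileup divided by the genome-wide background (log axis) at the canonical starts of 8 genes, with a point for each library and the mean and SD of 3 control and 3 HADA libraries. The HADA libraries lay above all control libraries at Ankrd37, P4ha1 and Mxi1, and the groups overlapped at the other genes.

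In control blood the levels of these 8 starts ran from 336 ± 73.1 at Kdm3a (SD, n = 3 libraries, as for all levels below) to 33.4 ± 8.18 at Mxi1. Kdm3a and Bnip3l (283 ± 54.9) overlapped in level and stood apart from Bnip3 (130 ± 31.2). Below them Bnip3, Vegfa (101 ± 17.4), Ankrd37 (101 ± 19.3), Ddit4 (80.4 ± 18.2) and P4ha1 (74.98 ± 15.4) each overlapped with the next in the order. Mxi1 lay clear below P4ha1. In HADA blood the first 3 places were the same, and P4ha1 (120 ± 7.39) lay clear above Ddit4 (92.7 ± 2.61), with which it had overlapped in the controls. Mxi1 was again lowest of the 8, at 55.9 ± 4.66, and the Adm start, which is outside this order, lay below it at 17.1 to 18.5.

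Vegfa, the growth factor that drives new vessels, had 1 region, at its start (chr17:46341797-46344119), with a summit 266 bp upstream of the canonical start and inside the lncRNA Gm65021 on the other strand. The summit pileups were 187, 167 and 205 among the controls, against 328, 258 and 219 in HADA blood. The groups overlapped once depth was taken into account, since HADA 3 at a level of 96.3 lay below control 1 and control 3. The centred difference between HADA and control was -0.11 (SE 0.20, limma adjusted p = 0.666).

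Adm encodes adrenomedullin, a peptide that widens vessels, and it had 3 regions, all of which held more HADA than control libraries or higher HADA levels. The start region (chr7:110226532-110227280, summit 185 bp upstream) had pileups of 42, 34 and 42 in HADA and no peak in any control library. At the local background of the neighbouring Adm peak, a control summit of 13, 12 and 9 fragments would have been enough to be listed in control 1, 2 and 3. In levels these limits are 7.70, 5.84 and 4.92, against HADA levels of 17.9, 17.1 and 18.5. A smaller opening in the control libraries would not have been detectable. A further region 1.6 kb upstream of the start was listed in HADA 1 and HADA 3 only, with pileups of 28 and 29, and there a summit of 24 fragments would have been needed in HADA 2.

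The Adm downstream region (chr7:110229289-110229934) lies beyond the end of the gene, in the lncRNA Gm28863, and within 3 kb of the Adm start. Its summit pileups were 27, 23 and 17 for the control libraries, set against 66, 64 and 59 for HADA. The levels did not overlap: they averaged 12.2 ± 3.45 in control and 28.8 ± 3.13 in HADA, a ratio of 2.37 (exact permutation p = 0.1, which no comparison of 3 libraries with 3 can go below). On the centred scale the region was higher by 0.90 (SE 0.18, 95% CI 0.48 to 1.31, limma adjusted p = 0.0114). The local background that MACS2 set beneath the summit, from the same library, was higher as well. It was 4.73, 4.40 and 2.46 in control blood, against 12.3, 10.9 and 12.2 after HADA. The deposited fold over local background lay between 4.44 and 5.20 for control and between 4.54 and 5.47 for HADA. The mean fold was 1.04 times the control mean, and after centring on the median shared region the difference in log2 fold was -0.04 (limma adjusted p = 0.829). Without HADA 2 the centred difference was 0.84 with an adjusted p of 0.0535. In a mixture of cells, more cells of a type and more open chromatin per cell cannot be told apart, here and below.

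Bnip3 and Bnip3l encode receptors on the outer mitochondrial membrane that mark mitochondria for autophagy. At the Bnip3 start (chr7:138510892-138511939, printed above) the pileups were 224, 200 and 292 among the controls, against 358, 254 and 239 in HADA blood. The levels of the groups overlapped, with a ratio of means of 0.990, and the centred difference was -0.38 (SE 0.23, limma adjusted p = 0.215). At the Bnip3l start (chr14:67245733-67246690), the second most open start of the set, the pileups were 490, 463 and 612 for the control libraries, set against 721, 489 and 509 for HADA. Its centred difference was -0.50 (SE 0.21), with an unadjusted limma p of 0.0470 and an adjusted p of 0.0907. Bnip3l was the 1 start of 8 with an unadjusted p under 0.05, against 52.5% of all shared regions.

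Bnip3 had a second region 19.3 kb downstream of its start, in a UTR near the end of the gene. It was low in every library, with 8 to 15 fragments in control and 11 to 12 in HADA, and its summits were spread over 1408 bp among the libraries. The 50 bases around its summit occur at 3 places in the genome, so that reads there may not be placed with certainty. It did not pass (centred difference -0.48, SE 0.26, limma adjusted p = 0.165), although the p was 0.0492 without control 1.

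Ddit4, also known as Redd1, restrains mTOR signalling. At its start (chr10:59786213-59788495) the pileups were 153, 122 and 167 in control blood, against 210, 187 and 215 after HADA. The levels overlapped, at 59.4 to 91.3 in control and 89.7 to 94.5 in HADA, and the lowest belonged to control 2. The centred difference was -0.15 (SE 0.20, limma adjusted p = 0.582).

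P4ha1 encodes the catalytic subunit of collagen prolyl 4-hydroxylase. At the P4ha1 start (chr10:59158751-59159890) the pileups were 156, 142 and 116 among the controls, against 276, 256 and 260 in HADA blood. Every HADA level, from 114 to 129, lay above every control level, from 63.4 to 92.4 (ratio 1.604, exact permutation p = 0.1). Relative to the median shared region the difference was 0.32 (SE 0.16, 95% CI -0.04 to 0.68, limma adjusted p = 0.131), and it passed when pileups were scaled to the genome-wide background (0.70, limma adjusted p = 0.0424). Under that scaling 7432 of all 23970 shared regions passed as higher. The local background at P4ha1 was higher by a similar ratio of 1.71, and the fold over local background was between 12.5 and 13.1 in all 6 libraries.

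Further into P4ha1, 2 intron regions were listed more often in HADA. The region 11.9 kb downstream of the start had pileups of 35, 36 and 49 in HADA and 10 in control 1. In control 2 and control 3, which had no peak there, 8 fragments over the genome-wide background would have been enough to be listed. The region 10.4 kb downstream had 18 and 22 fragments in HADA 1 and HADA 2, 12 in control 1, and no peak in the other libraries. Its window holds 3 core matches within 100 bp of the summit. With a peak missing in some libraries, neither region entered the limma test.

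Mxi1 competes with MYC for its partner MAX, and it had 8 regions, the most of the 9 genes, 3 of them in all 6 libraries. The Mxi1 intron region (chr19:53306688-53307733) lay in the lncRNA Gm30541 on the other strand as well, 5878 bp from the nearest annotated Mxi1 start. The pileups were 105, 101 and 158 for the control libraries, set against 80, 49 and 47 for HADA, so that every HADA library lay below every control library. The level was 65.9 ± 18.9 in control and 26.5 ± 6.95 in HADA. The centred difference was -1.69 (SE 0.28, 95% CI -2.32 to -1.05, limma adjusted p = 0.00914), the largest in size among the 12 tested regions. The fold over local background was lower too, between 6.28 and 7.01 in control and between 3.90 and 4.98 in HADA.

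The canonical Mxi1 start (chr19:53317529-53318767) went the other way in level. Its pileups were 68, 50 and 65 in control blood, against 138, 116 and 115 after HADA, and the levels did not overlap (ratio 1.68, exact permutation p = 0.1). Its centred difference of 0.39 (SE 0.19, limma adjusted p = 0.124) did not pass, whereas on the fold over local background it did (0.56 in centred log2 fold, limma adjusted p = 0.0303), and the local background differed by a ratio of 1.08. Control folds lay between 4.68 and 5.14, and HADA folds between 7.33 and 8.21. At the alternative upstream Mxi1 start, 15.2 kb upstream of the canonical one and 1190 bp from an annotated start, the pileups were 123, 95 and 130 among the controls, against 168, 133 and 145 in HADA blood. These levels overlapped (centred difference -0.26, SE 0.20, limma adjusted p = 0.308).

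The other 5 Mxi1 regions had a peak in some libraries only. The region 1.2 kb upstream of the canonical start was listed in all 3 control libraries, at 46, 30 and 51 fragments, and in HADA 1 at 44. Because the neighbouring background was high, 26 and 28 fragments would have been needed in HADA 2 and HADA 3. A region 2.8 kb downstream was listed in control 3 alone (64 fragments), 1 at 27.0 kb in HADA 2 alone (9 fragments) and 1 at 40.3 kb in HADA 2 and HADA 3 (18 and 14 fragments). The region 19.8 kb downstream, with 14 to 24 fragments in 5 libraries, sits on bases that occur at 4 places in the genome.

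**Figure D2:**
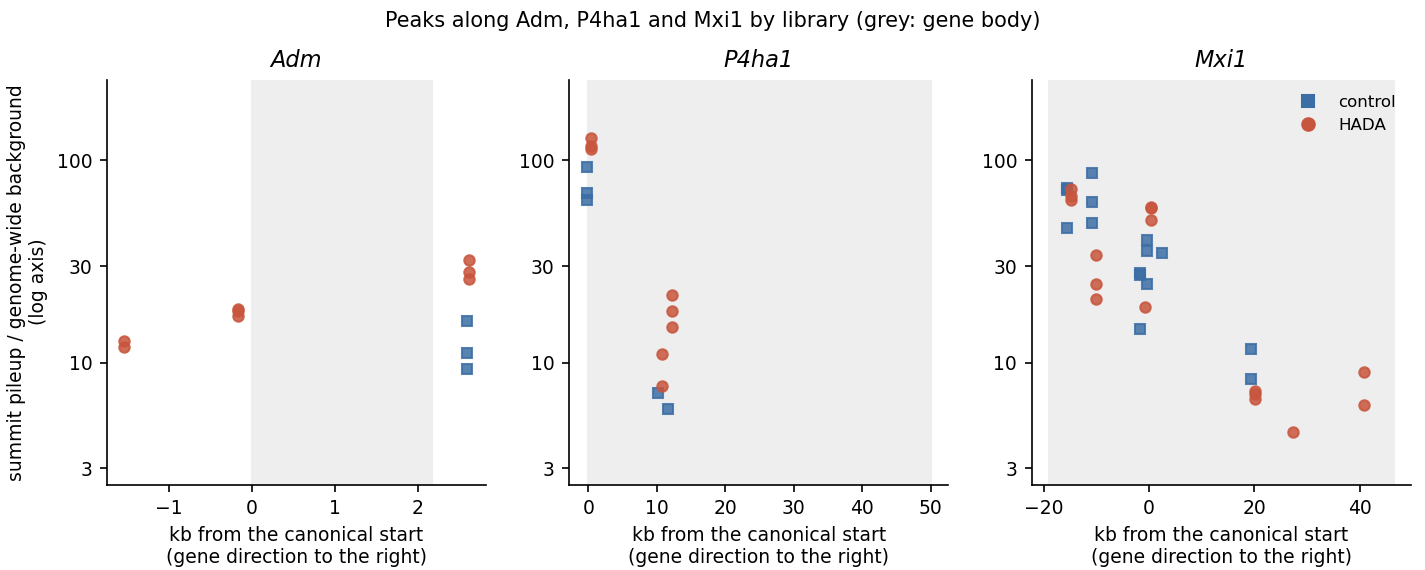
Summit pileup over the genome-wide background (log axis) of each peak along Adm, P4ha1 and Mxi1, against the distance of the region's summit from the canonical start in kb, for control (squares) and HADA (circles) libraries, with the gene body in grey. Adm has HADA peaks alone at its start and upstream, and the Mxi1 region 10.5 kb upstream is the place, among regions with a peak in all 6 libraries, where all control levels (49.2 to 86.4) exceed all HADA levels (20.7 to 34.2).

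Kdm3a encodes a demethylase of histone H3 lysine 9, and Ankrd37 an ankyrin repeat protein. Kdm3a had the most open start of the set (chr6:71609308-71610576), with pileups of 597, 525 and 729 for the control libraries, set against 848, 608 and 594 for HADA. The levels overlapped, and the centred difference was -0.48 (SE 0.22, limma adjusted p = 0.103). The Ankrd37 start region (chr8:46452396-46453527) is shared with Lrp2bp, whose start lies within 3 kb of its summit. Its pileups were 192, 161 and 200 in control blood, against 281, 283 and 275 after HADA. These levels did not overlap (ratio 1.27, exact permutation p = 0.1), but the centred difference was -0.02 (SE 0.19, limma adjusted p = 0.945), since the library medians stood higher in HADA by about as much.

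Of the 12 tested regions, 1 was called higher and 1 lower by limma at an adjusted p of 0.05. Across all 23970 shared regions 17.9% were called higher and 24.1% lower. Scaled to the genome-wide background 7432 of all shared regions were called higher and 4396 lower, and 5399 and 4090 after quantile normalization, so that the balance of directions turned. Without HADA 2 the counts over all shared regions were 737 higher and 2021 lower, in place of 4291 and 5769. By fold rank the Mxi1 start was called higher in place of the Adm downstream region, and the Mxi1 intron region lower, while 6.56% of all shared regions were called higher and 4.78% lower. The place of the members relative to all regions thus depends on the scale. The median centred difference of the 12 regions was -0.20, against -0.04 over all shared regions, and 6 of the 8 start regions had a negative sign, against 52.1% of all shared regions. Scaled to the genome-wide background, 3 of the 8 were negative, against 34.5% of all. In levels, 4 of the 12 regions had all HADA libraries above all control libraries, against 42.6% of shared regions, and 1 had all of them below, against 17.4%. Adm gave the only member region of 21 with a peak in 3 HADA and no control libraries, a pattern found in 7.01% of all regions, and the reverse pattern was found in 0 of 21 member regions and in 1.88% of all regions. The 9 regions missing from at least 1 library were not tested, so the 12 do not stand for all member regions.

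**Figure D3:**
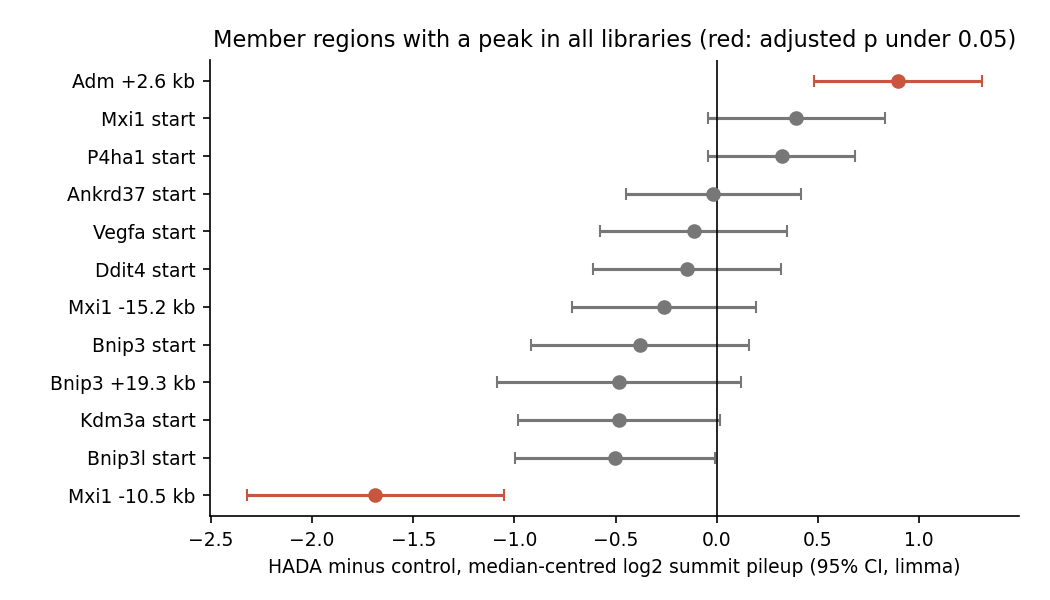
Difference between HADA and control in median-centred log2 summit pileup, with 95% confidence intervals from limma, for the 12 member regions with a peak in all 6 libraries. The Adm downstream region (0.90) and the Mxi1 intron region (-1.69) passed an adjusted p of 0.05, and the intervals of the other regions reach from -1.08 to 0.83.

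The number of peaks at the 9 genes was 16, 14 and 16 among the controls, against 18, 18 and 18 in HADA blood. Because the HADA lists were longer, the count was also expressed per 10000 peaks of the list, where it was 3.98 ± 0.66 in control and 4.02 ± 0.083 in HADA. The small difference between these means (0.039) turned to -0.20 when every list was cut to its 34045 strongest peaks, to -0.16 at a −log10 q of at least 5, to -0.24 within 3 kb of a start only and to -0.073 in the gene body or within 1 kb of a start, and ran from -0.26 to 0.40 when 1 library was left out. All 9 genes had a peak in every library. Counting only peaks in the gene body or within 1 kb of a start left 8 of the 9 genes with a peak in each control library and 9 in each HADA library, the difference being Adm.

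Summit, local background and fold differed together at some genes and separately at others. Each list was called from 1 library, so the local background was taken from the same fragments as the summit. Among the control means it was lowest at Bnip3 +19.3 kb (1.00, summit 5.65) and highest at Kdm3a (19.7, summit 336). These are the lowest and highest summits of the 12 regions, although the order between them was not strict. The local background and the fold are thus not independent of the summit. At Adm and P4ha1 the local background differed as much as the summit, at ratios of 2.56 and 1.71, and the fold was at ratios of 1.04 and 0.981. At the Mxi1 start the summit differed with little difference in the local background. At the Mxi1 intron region the summit (ratio 0.402), the local background (0.597) and the fold (0.660) were all lower in HADA. These ratios are of group means over 3 libraries.

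**Figure D4:**
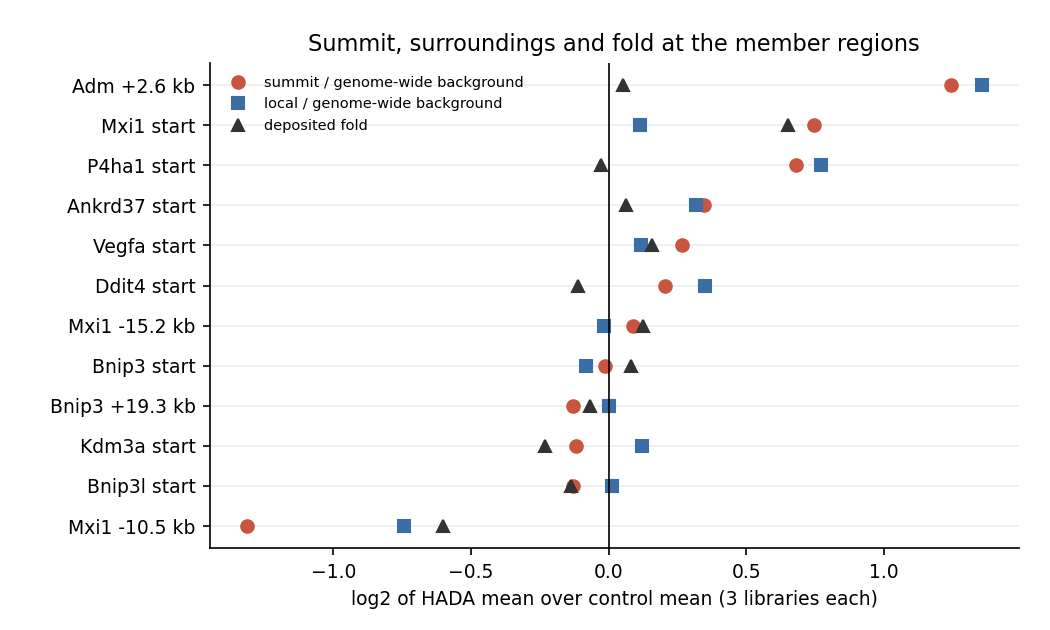
The log2 ratio of the HADA mean to the control mean for the summit pileup over genome-wide background (circles), the local background over genome-wide background (squares) and the deposited fold (triangles) at the 12 member regions. Summit and local background, which come from the same library, lie far to the right and the fold near 0 at Adm, while the fold of the Mxi1 start lies beside its summit.

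Marker regions of blood cell types were examined beside these results, where 17.9% of all shared regions were called higher and 24.1% lower. The summed levels are not centred, and a gene without a peak adds nothing to them. In levels, 42.6% of shared regions had all HADA above all control libraries. The 13 oxygen sensing and HIF genes, described below, also lay apart, with sums of 1123 to 1537 in control and 1667 to 1891 in HADA. Groups that lie apart in a sum therefore do not by themselves mark a cell type. For B cells, all 7 marker regions shared by the libraries were called higher in HADA, and the summed level at the starts of the 7 marker genes ranged from 28.4 to 258 among control and from 708 to 815 among HADA libraries. The lowest sum, of control 3, came from 4 of the 7 genes, whereas control 1 (258) and control 2 (162) had start peaks at all 7. For neutrophils, 7 of 8 tested marker regions were called lower, and the summed start level of the 8 genes ranged from 286 to 801 and from 148 to 269. For monocytes 4 of 5 regions were called lower (summed level 112 to 184 in control and 106 to 138 in HADA, 6 genes). For T cells 4 of 15 were called higher (26.7%, against 17.9% of all shared regions), with differences from -0.31 to 1.30 and a median of 0.21. Their summed levels were 210 to 293 and 350 to 417 (9 genes, with no start peak at Cd8a). NK cell markers had 1 tested region, which limma did not call, with summed levels of 11.5 to 39.7 in control and 41.9 to 63.3 in HADA. Erythroid markers summed to 67.2 to 82.3 and 157 to 184, with no start peak at Hba-a1, Epb42 or Alas2, and 1 of 1 tested region was called higher. Platelet markers summed to 16.4 to 23.1 and 37.8 to 41.9, with no start peak at Gp1ba, Gp9, Ppbp or Gp6, and 1 of 2 was called higher.

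The order of the libraries in these marker sums was shared by 3 of the member regions, a comparison made after their values were seen. Both orders place the groups wholly apart, as the levels of these regions already did, so part of each order was fixed beforehand. The Mxi1 intron region had its levels in the order of the neutrophil sum, from control 3 (86.4, with a sum of 801) through control 1 (62.2 and 465), control 2 (49.2 and 286), HADA 1 (34.2 and 269) and HADA 2 (24.6 and 210) to HADA 3 (20.7 and 148). The same order was found in 4.46% of all shared regions, and in 1070 of the 4173 with all HADA levels below all control levels. The Adm downstream region and the P4ha1 start had their levels in the order of the B cell sum, from HADA 2 through HADA 1, HADA 3, control 1 and control 2 to control 3. That order was found in 7.20% of shared regions, and in 1726 of the 10207 with all HADA levels above all control levels. The part of cell composition in the member differences was not tested.

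The 3 protein-coding genes whose region nearest a start followed the Mxi1 intron region most closely over the 6 libraries, among 10208 candidates, were Cd300c2, Lypd6b and Treml4. Their Pearson correlations with it were 0.999, 0.998 and 0.998. Their own centred differences were -1.81, -2.25 and -1.72, all past the limma threshold. The libraries share their groups and depth, so the correlations describe likeness over 6 points only.

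Related genes were examined beside the 9. The list of 30 other non-glycolytic hypoxia targets had 26 tested regions, of which 4 were called higher (15.4%, against 17.9% of all shared regions) and 3 lower (11.5%, against 24.1%), with a median centred difference of -0.06. Car12, a carbonic anhydrase, was 0.97 higher at its start (SE 0.22, limma adjusted p = 0.0143), Angptl4, an inhibitor of lipoprotein lipase, 0.61 higher and Insig2, a brake on sterol synthesis, 0.49 higher. Plin2, which coats lipid droplets, fell by 0.85 (SE 0.18, limma adjusted p = 0.0130), and Egln3, an oxygen-dependent HIF prolyl hydroxylase, fell by 0.95.

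Of the 14 tested regions of the 13 oxygen sensing and HIF genes, 0 were called by limma, against 42.0% of all shared regions called in either direction, and their differences ran from -0.45 to 0.68. An unadjusted p under 0.05 was found for 1 of them, against 52.5% of all shared regions. Scaled to the genome-wide background 5 of the 14 were called, against 7432 higher and 4396 lower of all 23970 shared regions. By fold rank 1 of the 14 was called, against 6.56% of all shared regions called higher and 4.78% lower. Egln3, which was called lower, was placed among the targets and not in this list. Of the 35 tested regions of 18 glycolytic hypoxia targets, 8 were called lower (22.9%, against 24.1% of all shared regions) and 2 higher (5.71%, against 17.9%), with a median of -0.22. Slc16a3, the lactate exporter MCT4, fell by 1.83 at its start (SE 0.32, limma adjusted p = 0.00973), and a Gpi1 region 1351 bp from a start fell by 1.74 and an Ldha region 2592 bp from a start by 0.97. The regions nearest to the Gpi1 and Ldha starts did not pass, at 0.16 (limma adjusted p = 0.604) and 0.23 (limma adjusted p = 0.262). Pfkp and Pdk1 were higher by 0.93 and 0.64. The difference between lists was not tested.

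**Figure D5:**
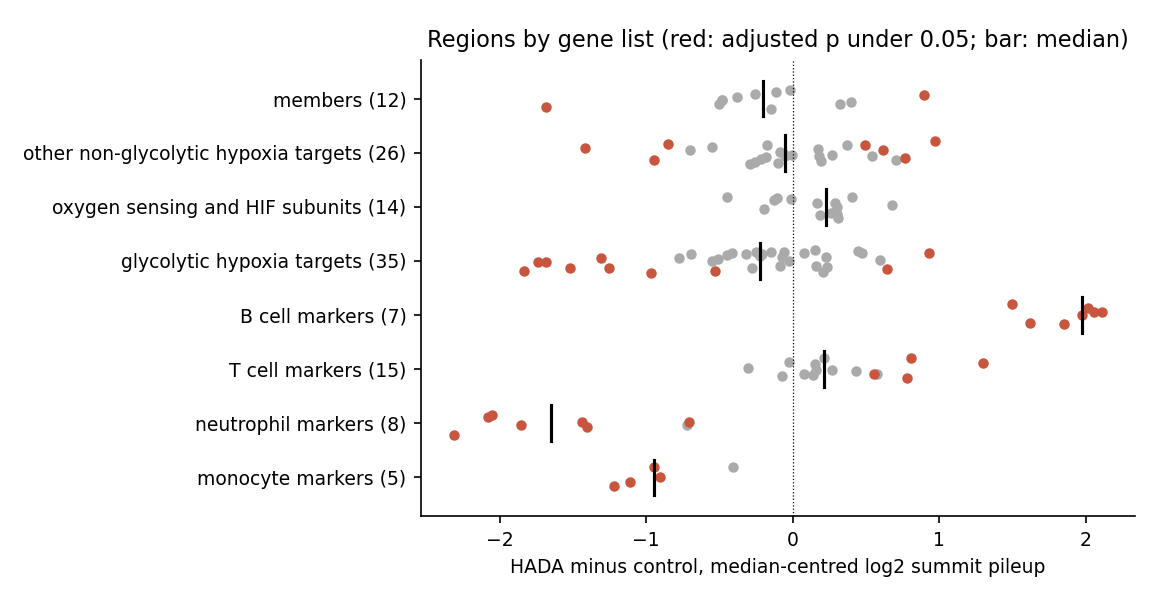
Centred log2 differences between HADA and control of all tested regions of each gene list with at least 5 such regions, with the number of regions in brackets, a bar at the median and regions past an adjusted p of 0.05 in red. The 12 member regions sit between -0.50 and 0.39 apart from the 2 called regions, B cell marker regions lie between 1.498 and 2.11, and neutrophil marker regions between -2.31 and -0.71.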

How the data were processed

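Peak lists of 6 ATAC-seq libraries of mouse blood white cells were analysed, grouped by the labels. Per the labels and methods, Trimmomatic trimmed the reads, Bowtie2 placed them on GRCm39, Picard took out duplicates and MACS2 made the peak lists (options and versions not given in the sources used here). Each deposited list, called from 1 library, holds a score, a fold (the ratio of summit to local background), a −log10 p-value and a −log10 q-value.

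The whole-number summit pileup and the local background were solved from the deposited fold and −log10 p-value (100% of peaks solved, relative tolerance 0.002). No total read counts were analysed; the most common local background stands for depth. Peaks sharing 1 bp were merged into regions, with the tallest peak as the value of a library. Genes came from GENCODE M39. Regions with a peak in all 6 libraries were compared with limma 3.58.1 (R 4.3.3) on median-centred log2 summit pileups, with Benjamini-Hochberg adjustment over all of them at 0.05, and single values by a two-sided exact permutation test (smallest p 0.1). The code was tested on simulated data. The labels do not name separate animals, so p-values measure the spread between libraries. Named were all regions of the 9 genes, at most 3 called start genes a direction from other lists, and the 3 genes most like the member region with the smallest p. The members and lists were chosen with earlier results of these data known.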

Additional observations from a re-analysis of the deposited data

How the results depend on the processing

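The 12 member regions were refitted under 14 alternatives, which gave 166 values: 140 kept their direction and side of the threshold, 2 lost the call with the same sign, 5 gained one and 19 changed sign, 1 of which (Adm +2.6 kb by log2 fold) lost its call as well. The Mxi1 intron region 10.5 kb upstream of the canonical start was called under every alternative that was run. Under the scaling to the genome-wide background 3 of the 12 member regions were called higher, against 7432 of all 23970 shared regions. P4ha1 start (0.70) and Mxi1 start (0.77) were the added ones, because that scaling does not remove the shift of the median region. The signs of Vegfa start (0.26), Ddit4 start (0.23), Ankrd37 start (0.36) and the upstream Mxi1 start (0.12) turned under the same scaling. With normal scores of the fold rank they turned at Vegfa start (0.19), Bnip3 start (0.092), Ankrd37 start (0.088), P4ha1 start (-0.15) and the upstream Mxi1 start (0.21), with the log2 fold, centred like the pileups, at Vegfa start (0.070), P4ha1 start (-0.12), Adm +2.6 kb (-0.038) and the upstream Mxi1 start (0.035), and with quantile normalization at Bnip3 +19.3 kb (0.14) and Ankrd37 start (0.086). Of these only Adm +2.6 kb had been called; its value by fold rank was 0.057. Without centring its mean fold was 1.04 times the control mean. The fold holds the local background, which the pileup does not.

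Leaving out 1 library at a time gave 0 to 1 member regions called higher (0 without HADA 2) and 1 to 2 called lower (2 without control 1, through Bnip3 +19.3 kb, and 2 without control 3, through a Mxi1 region that then became testable). The sign of Ankrd37 start turned without control 3 (0.061), HADA 1 (0.053) or HADA 3 (0.0015), in a range of -0.12 to 0.061, and that of Vegfa start without HADA 3 (0.030), in a range of -0.20 to 0.030. Across all shared regions 737 to 4813 were called higher and 2021 to 5917 lower without 1 library, the fewest without HADA 2. The counts were 1573 and 1146 by fold rank, 1115 and 1276 by log2 fold, 7432 and 4396 when scaled to the background, and 5399 and 4090 after quantile normalization. The replicate numbers do not pair the libraries (correlations of same-numbered libraries -0.080, 0.075 and -0.38); with a replicate block 2991 regions were called higher and 5660 lower, and the same number of member regions, 1 and 1. Member regions in HADA alone numbered 2 at a −log10 q of at least 5 and 1 to 2 without 1 library. Those in control alone numbered 1 when peaks were merged only where they shared 0.5 of the shorter one, and 0 to 1 without 1 library. The causes of other moves were not tested. Low pileups, of 8 to 15 fragments at Bnip3 +19.3 kb and 14 to 24 at the Mxi1 region 19.8 kb downstream, limit what can be seen there.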
